A study of Homo sapiens with 18 samples.

Results

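The histone cluster genes encode the linker histone H1 and the core histones H2A, H2B, H3 and H4 that package newly made DNA. They were taken here as all rows of the count tables whose symbol starts with HIST1H, HIST2H, HIST3H or HIST4H, which gave 73 of 23411 symbols. Of these 73 genes, 21 had 10 or more counts in at least 3 of the 18 libraries, 32 had fewer counts and 20 had no count in any library. They were followed in ARPE-19, an established human retinal pigment epithelial (RPE) cell line, over 6 groups of 3 samples. Both kinds of cells had been transduced with a lentiviral vector for the Cas9 nuclease. The control cells received it without a guide RNA, and the NRF2 ΔC cells with a guide against exon 5, the last exon of NFE2L2, the gene of the oxidative stress regulator NRF2. The NRF2 ΔC cells are 1 edited clone, so an effect of the edit and a trait of that clone cannot be told apart. Each kind of cells was left untreated (Milli-Q water), treated with 1 mM NACET, the ethyl ester of N-acetylcysteine, or treated with 0.2 mM H2O2. The series text gives 40 h of culture in 10% serum and 8 h of treatment, whereas the sample labels give 22 h in 1% serum and 2 h. The labels alone do not settle which of the schedules these libraries follow. The paper describes the schedule of the series text for this experiment, and not that of the sample labels.

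Most histone cluster genes are transcribed in S phase, together with DNA replication, from gene clusters in which several near-identical copies lie side by side. Their mRNAs carry no introns and end in a conserved stem-loop, bound by the protein SLBP, instead of a poly(A) tail, and they are destroyed when replication stops. Some of the same genes also give longer, polyadenylated transcripts, which are best known from cells that have left the cell cycle. These libraries were made from poly(A)-selected RNA, which disfavours mRNAs without a tail, and which form the counted reads come from was not tested.

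The stem-loop marks the mRNA form without a poly(A) tail, and all 67 protein-coding members with a position in GRCh37 (the build also named hg19) carried one within 150 bases after the stop codon in the GENCODE annotation. Of its 16 bases, the commonest version, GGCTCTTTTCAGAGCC, was found in 39 members, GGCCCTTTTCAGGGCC in 9 and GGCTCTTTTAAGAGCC in 9. The stem-loops of the genes that the results turn on are shown 5′ to 3′ on the strand of the gene, with the 16 bases of the stem-loop in capitals and 5 bases on each side in lower case.
HIST1H1C (chr6:26055967-26055992, minus strand): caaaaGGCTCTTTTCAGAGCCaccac
HIST3H2A (chr1:228645065-228645090, minus strand): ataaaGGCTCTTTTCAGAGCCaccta
HIST1H2AC (chr6:26124892-26124917, plus strand): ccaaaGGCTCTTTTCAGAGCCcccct
HIST1H2BK (chr6:27114140-27114165, minus strand): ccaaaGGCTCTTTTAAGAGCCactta
HIST2H2BE (chr1:149857733-149857758, minus strand): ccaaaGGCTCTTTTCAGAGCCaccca
HIST2H2BF (chr1:149783435-149783460, minus strand): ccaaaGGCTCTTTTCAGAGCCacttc
HIST1H3E (chr6:26225819-26225844, plus strand): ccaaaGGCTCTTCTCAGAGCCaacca
HIST1H4H (chr6:26285354-26285379, minus strand): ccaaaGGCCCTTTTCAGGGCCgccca
The 8 stem-loops lie just after the stop codon, in the untranslated region after it. Of the 18 protein-coding members with 10 or more counts in 3 libraries and a position, 11 had an annotated transcript that runs more than 200 bases past the stop codon, against 7 of the 49 with fewer counts. The longest annotated stretch past the stop codon had a median of 556.5 bases in the first group and of 58 bases in the second. HIST2H2BE was annotated for 1801 bases past its stop codon, HIST3H2A for up to 1166 and HIST1H3E for up to 1908. The 2 members with most counts were exceptions, since HIST1H2BK and HIST1H1C were annotated for only 57 and 47 bases past the stop codon.

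Counts were concentrated in few members (plot of counts per library). The histone cluster genes held 923 to 2100 counts per library (median 1353.5), or 50.6 to 106 CPM, the count scaled by the reads on genes. HIST1H2BK alone had 10371 of the 26784 histone counts, 38.7%, and the 6 members with most counts had 85.0%. These were HIST1H2BK, HIST1H1C with 3475 counts over the 18 libraries, HIST3H2A with 2785, HIST1H2AC with 2709, HIST2H2BE with 1736 and HIST1H2BD with 1703. By class, H2B genes held 58.0% of the counts, H2A genes 23.4%, H1 genes 13.2%, H3 genes 3.08% and H4 genes 2.34%. Of the H2B genes 10 of 20 reached 10 counts in 3 libraries, of the H2A genes 6 of 18, of the H3 genes 3 of 14, of the H1 genes 1 of 6 and of the H4 genes 1 of 15. Just inside this limit were HIST1H2AG and HIST1H3D with 4 such libraries and HIST2H2AC with 3, and just outside it HIST1H4E and HIST4H4 with 2 each.

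The members without counts include near-identical copies. HTSeq-count drops reads that map to more than 1 place, and in 8 members no 50-base window of the coding sequence (of the exons where there is none) occurs only once in GRCh37. Among these 8 were the pairs HIST2H2AA3 and HIST2H2AA4, HIST2H3A and HIST2H3C, and HIST2H4A and HIST2H4B, all at 0 in every library, and their 0 says nothing on their transcription. With other members at 0, such as HIST1H1A (100% of its windows unique), 3 counts per library would be a level of 0.116 to 0.180 CPM. This is about the upper limit at 95% confidence for a count of 0 in 1 library, and it holds for poly(A)-selected RNA only. Of the 21 members with more counts, 5 had under 50% of windows unique, with 26.1% for HIST1H2BK, 47.1% for HIST2H2BE, 26.7% for HIST2H2BF, 20.3% for HIST2H2BC and 6.41% for HIST2H2BA. Reads from the other windows were dropped, so the shares of counts by gene and class are shares of counted reads and not of transcripts. Beyond these shares, levels are not compared between genes here. Reads were counted without regard to strand, and 6 of the 21 share exon bases with another gene. Among them are HIST1H2AC with a gene that has no symbol in the annotation, HIST1H2BC with HFE and HIST2H2BF with FCGR1A.

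Promoters were read for 65 of the 73 members from RefSeq (GRCh38.p14), from 250 bases before to 50 after the start, and searched on both strands. The octamer ATTTGCAT, known as the binding sequence of the factor OCT1 in H2B promoters, was found in 40% of the members' promoters against 1.80% of all 27305 promoters. It was found in 77.8% of H2B promoters, 68.8% of H2A promoters and none of the 6 H1 and 13 H4 promoters. The letters CCAAT were in 84.6% of the members' promoters (35.7% of all), and TATAAA in 66.2% (12.0% of all). The core of the antioxidant response element bound by NRF2, TGACNNNGC, was in 12.3% of the members' promoters and in 13.6% of all. Among the members with 10 or more counts in 3 libraries it was in 5 of the 19 promoters read (26.3%), which are not 5 separate sites. HIST1H2AG and HIST1H2BJ face away from 1 stretch and share its site, as do HIST1H2AK and HIST1H2BN. For HIST1H2BN and HIST1H4H the site lies after the start. The 250 bases before the start are shown for HIST2H2BE and HIST1H2AC, the 2 members with the smallest adjusted p for a treatment when samples were paired, with the 4 motifs in capitals, where neighbouring motifs can share bases.
HIST2H2BE (GRCh38.p14 chr1:149886683-149886932, minus strand): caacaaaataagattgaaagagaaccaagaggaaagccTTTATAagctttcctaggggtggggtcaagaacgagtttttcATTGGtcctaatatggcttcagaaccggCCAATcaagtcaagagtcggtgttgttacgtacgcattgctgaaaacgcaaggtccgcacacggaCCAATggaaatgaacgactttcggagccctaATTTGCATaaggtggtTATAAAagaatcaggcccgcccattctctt
HIST1H2AC (GRCh38.p14 chr6:26123922-26124171, plus strand): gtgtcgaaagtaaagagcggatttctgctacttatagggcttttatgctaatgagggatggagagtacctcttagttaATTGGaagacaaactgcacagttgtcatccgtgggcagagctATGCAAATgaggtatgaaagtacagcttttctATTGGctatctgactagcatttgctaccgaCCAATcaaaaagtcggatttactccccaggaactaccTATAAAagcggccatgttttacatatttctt
Both windows hold the octamer, CCAAT and TATAAA, and neither holds TGACNNNGC. Both genes are 1 side of a head-to-head pair, in which an H2A and an H2B gene leave the same stretch in opposite directions. HIST2H2AC, the partner of HIST2H2BE, had 103 counts over the 18 libraries, and HIST1H2BC, the partner of HIST1H2AC, had 142.

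The libraries held 16673306 to 25951154 reads on genes (median 21447434), and no library stood apart in its share of reads on no gene, 15.0 to 17.5%. Of the RPE markers, RPE65 had at most 1 count per library, TTR at most 2 and RLBP1 at most 8, whereas MITF had at least 1363, OTX2 at least 1992 and the epithelial keratins KRT8 and KRT18 at least 7708 and 5057. NFE2L2 itself did not pass the test in any of the 7 comparisons of 2 groups (log2 fold changes of -0.22 to 0.14 in edgeR), and an edit in its last exon need not change its count. The 3 samples of a group are separate samples by their labels, which do not say whether they come from separate cultures, so p-values measure the spread between these samples. edgeR estimates this spread for a gene partly from other genes. Samples with the same number in the labels deviated together within a cell line (correlations of 0.387 to 0.796 over 12 pairs of a treated and an untreated sample). The same untreated samples serve for both treatments. The test with the sample number as a block is therefore given beside that without it for the treatments, and between the cell lines, where correlations ran from -0.296 to 0.681, it is not.

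Under NACET no member passed the test without pairing, and with samples paired by number HIST1H2AC was lower in both cell lines and HIST1H3E and HIST2H2BE in NRF2 ΔC cells. Without pairing, edgeR's quasi-likelihood test (adjusted p below 0.05, log2 fold change of 0.6 or beyond in either direction) called 0 of the 12 members tested in control cells, where it called 2.75% of all genes. One of the 12, HIST1H2BK, had an unadjusted p under 0.05, and DESeq2 called 0 of 11 (4.24% of all genes), with 2 under 0.05 unadjusted. In NRF2 ΔC cells it called 0 of 12 (1.39% of all genes), with an unadjusted p under 0.05 for HIST1H2BN alone, and DESeq2 called 0 of 10 (4.32%), none under 0.05 unadjusted. The fitted log2 fold changes had a median of -0.31 in control cells, 10 of 12 below 0, and of -0.40 in NRF2 ΔC cells, all 12 below 0, whereas the medians over all genes tested were -0.0057 and -0.0067. Summed over the 73 members, the level was 71.3 ± 11.1 CPM untreated and 56.0 ± 4.0 CPM with NACET in control cells (SD, n = 3 each, TMM-normalized CPM, the scale of all levels per sample). In NRF2 ΔC cells it was 77.5 ± 20.2 and 59.3 ± 11.4 CPM, and the groups overlapped in both lines. In bulk RNA, fewer cells with a transcript and less of it per cell cannot be told apart.

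HIST1H2AC, an H2A gene that shares exon bases with another gene, was the member that changed most clearly with NACET when samples were paired. In control cells it had 11.3, 7.09 and 3.97 CPM in untreated samples 1, 2 and 3, and 5.77, 3.70 and 3.09 CPM with NACET. NRF2 ΔC samples had 16.1, 8.69 and 5.26 CPM untreated and 9.19, 4.62 and 3.33 CPM with NACET. The groups overlapped in both lines, since sample 1 was the highest and sample 3 the lowest of every group, but each NACET sample lay below the untreated sample of its number. Without pairing its log2 fold changes were -0.82 ± 0.39 (SE) in control cells and -0.81 ± 0.47 in NRF2 ΔC cells (adjusted p = 0.275 and 0.411). These unpaired values rested on single libraries, at -0.39 in control and -0.29 in NRF2 ΔC cells without untreated sample 1 and at -1.13 and -1.35 without NACET sample 1. In NRF2 ΔC cells the value was -0.53 without NACET sample 3. With the sample number as a block they were -0.78 ± 0.14 and -0.82 ± 0.12, and edgeR called both (adjusted p = 2.34e-07 and 8.61e-05). These p-values lean on the spread of other genes, since 1 gene gives only 3 pairs in a line. On log2(CPM + 0.5) the pairs of HIST1H2AC were at -0.91, -0.85 and -0.32 in control cells. In NRF2 ΔC cells they were at -0.78, -0.84 and -0.59. With this block 1 of 12 members was called in control cells, where 7.49% of all genes were, and 3 of 12 in NRF2 ΔC cells, where 8.82% of all genes were.

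The other members called with pairing under NACET were HIST1H3E, an H3 gene, and HIST2H2BE, an H2B gene, both in NRF2 ΔC cells. HIST1H3E had 2.00, 1.28 and 1.11 CPM in untreated NRF2 ΔC samples 1, 2 and 3 and 1.21, 0.550 and 0.365 CPM with NACET, so that the sample pairs agreed in direction while the groups overlapped. Its log2 fold change was -1.02 ± 0.46 without pairing (adjusted p = 0.283) and -1.07 ± 0.28 with it (adjusted p = 0.00794), and the unpaired value was -1.69 without NACET sample 1. In control cells it had 1.64, 1.21 and 1.00 CPM untreated and 1.39, 0.688 and 0.494 CPM with NACET, and was not called with pairing (-0.59 ± 0.28, adjusted p = 0.0799).

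HIST2H2BE had 7.46, 3.88 and 2.44 CPM in untreated NRF2 ΔC samples and 3.39, 1.87 and 3.06 CPM with NACET, lower in samples 1 and 2 and higher in sample 3. Its log2 fold change was -0.73 ± 0.41 without pairing (adjusted p = 0.398) and -0.69 ± 0.23 with it (adjusted p = 0.0249). The unpaired value was -0.19 without untreated sample 1, and leaving out each of the other libraries gave -1.03 to -0.51. In control cells the 3 untreated samples had 5.42, 5.16 and 3.33 CPM and the NACET samples 2.98, 5.34 and 1.44 CPM, and with pairing the change passed the adjusted p but not the fold limit (-0.56 ± 0.16, adjusted p = 0.00227).

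HIST1H2BK, the H2B gene with most counts, was lower with NACET by less than the fold limit. In control cells it had 29.4, 24.7 and 24.4 CPM untreated and 19.4, 21.01 and 20.2 CPM with NACET, so that the groups did not overlap. NRF2 ΔC samples had 35.2, 28.0 and 24.7 CPM untreated and 26.7, 21.3 and 19.9 CPM with NACET, and the groups overlapped although each pair was lower. Its log2 fold changes were -0.36 ± 0.11 and -0.39 ± 0.18 without pairing (adjusted p = 0.119 and 0.290) and -0.36 ± 0.08 and -0.39 ± 0.09 with it (adjusted p = 0.000117 and 0.00232). Of the 21 members, 7 were lower in all 3 same-numbered pairs in control cells (32.4% of the 14219 genes with 10 or more counts in 3 libraries were) and 11 in NRF2 ΔC cells (29.1%). Members whose groups did not overlap numbered 2 in control cells (26.1% of these genes) and 2 in NRF2 ΔC cells (24.4%).

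**Figure D1:**
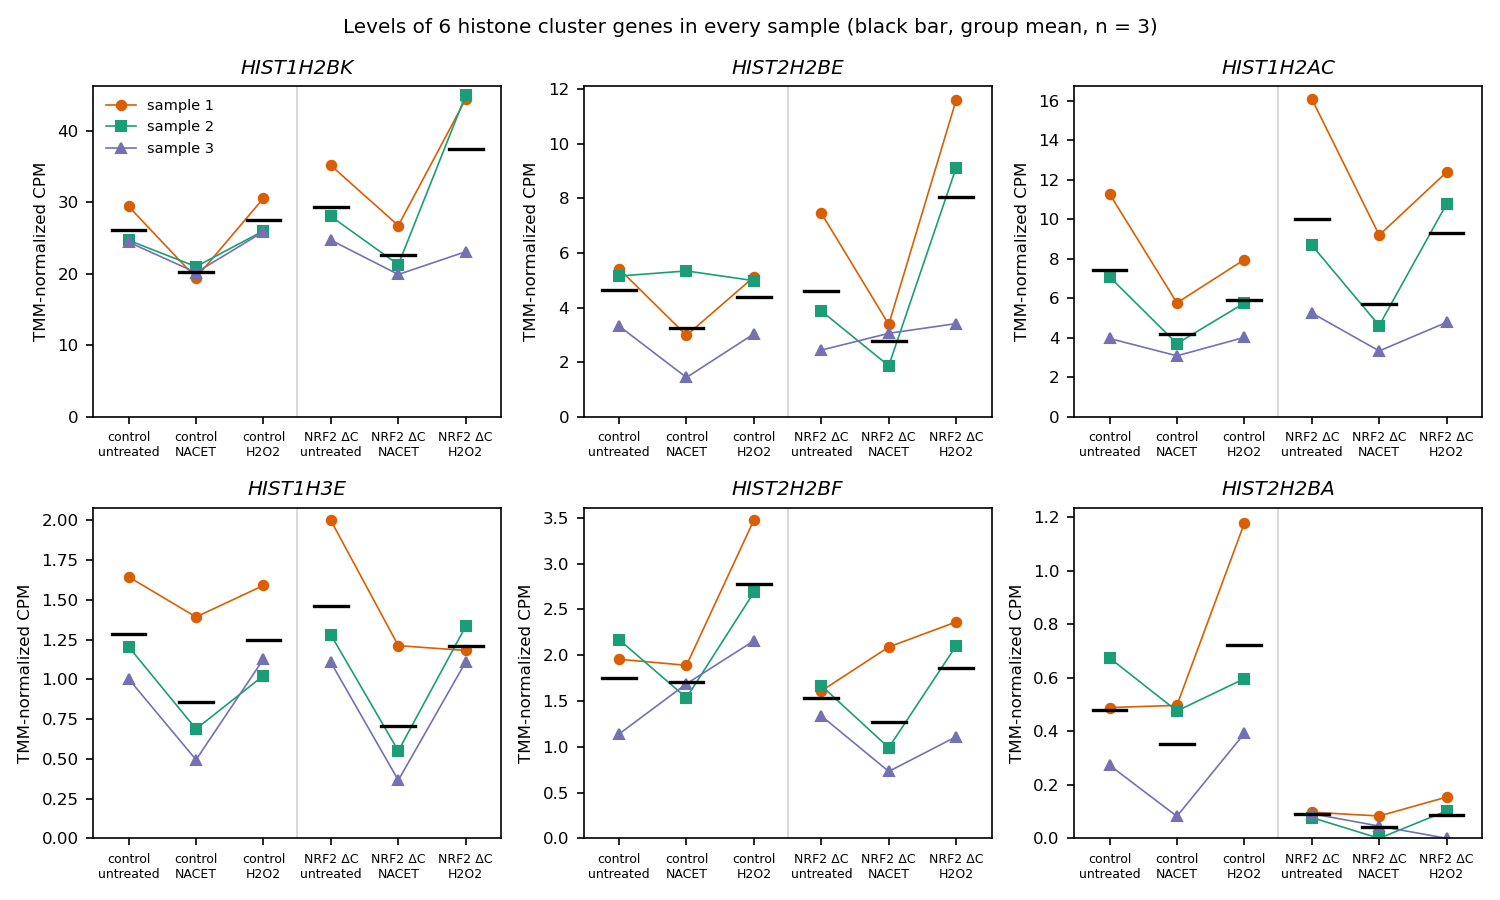
TMM-normalized CPM of 6 members in every sample of the 6 groups, with lines joining the samples of 1 number within a cell line and black bars at the group means. HIST1H2AC falls with NACET along every line, HIST2H2BE rises with H2O2 along every line of the NRF2 ΔC cells, and HIST2H2BA lies near 0 in all 9 NRF2 ΔC samples.

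H2O2 gave no common direction in control cells. Of the 14 members tested edgeR called 0 (6.33% of all genes), HIST1H2BN alone had an unadjusted p under 0.05, and DESeq2 called 0 of 13 (7.16%), none with an unadjusted p under 0.05. The 14 log2 fold changes had a median of -0.01, with 7 above 0 and 7 below. HIST1H2BN, an H2B gene, had 0.578, 0.627 and 0.501 CPM in untreated control cells and 0.943, 1.07 and 0.784 CPM with H2O2, without overlap, and a log2 fold change of 0.71 ± 0.28 (adjusted p = 0.123). HIST2H2BF, another H2B gene, was the 1 member called with pairing (10.2% of all genes were), at 0.66 ± 0.20 (adjusted p = 0.013) against 0.65 ± 0.29 without (adjusted p = 0.170), and without untreated sample 3 the unpaired value was 0.42. Its levels were 1.96, 2.17 and 1.14 CPM untreated and 3.48, 2.69 and 2.16 CPM with H2O2, higher in each pair but with overlap, and it shares exon bases with FCGR1A, from which unstranded counts cannot separate it. HIST1H1C, the only H1 gene with 10 counts in 3 libraries, had 10.2, 8.68 and 9.39 CPM untreated and 8.37, 5.88 and 8.53 CPM with H2O2, and with pairing it passed the adjusted p but not the fold limit (-0.32 ± 0.12, adjusted p = 0.0328). Non-overlapping groups were seen in 4 of 21 members (34.4% of the 14219 genes).

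In NRF2 ΔC cells HIST2H2BE was the member that rose with H2O2 when samples were paired. It had 11.6, 9.13 and 3.41 CPM in H2O2 samples 1, 2 and 3, against 7.46, 3.88 and 2.44 CPM untreated, so that every pair was higher while the groups overlapped. The log2 fold change was 0.78 ± 0.48 without pairing (adjusted p = 0.308) and 0.78 ± 0.17 with it (adjusted p = 7.02e-05), and this was the 1 call among 15 members (18.7% of all genes). The unpaired value was 0.43 without H2O2 sample 1, 0.48 without untreated sample 3 and 1.33 without untreated sample 1. Without pairing edgeR called 0 of 15 (9.81% of all genes), none had an unadjusted p under 0.05 and DESeq2 called 0 of 22 (11.7%), again none under 0.05. Of the 15 log2 fold changes 11 lay above 0, with a median of 0.23. HIST1H2BK had 44.4 and 45.0 CPM in H2O2 samples 1 and 2 but 23.1 CPM in sample 3, against 35.2, 28.0 and 24.7 CPM untreated, and with pairing it was below the fold limit (0.29 ± 0.12, adjusted p = 0.0379). HIST2H2AC, which shares its promoter window with HIST2H2BE, had 0.146, 0.388 and 0.461 CPM untreated and 0.154, 0.257 and 0.171 CPM with H2O2, without a common direction. Groups that did not overlap were seen in 2 of 21 members (33.6% of the 14219 genes). Summed over the 73 members, the level with H2O2 was 67.1 ± 8.2 CPM in control cells and 90.3 ± 28.5 CPM in edited cells (SD, n = 3 each). Of the edited samples, 1 and 2 were at 107.9 and 105.5 CPM and sample 3 stood apart at 57.4 CPM.

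**Figure D2:**
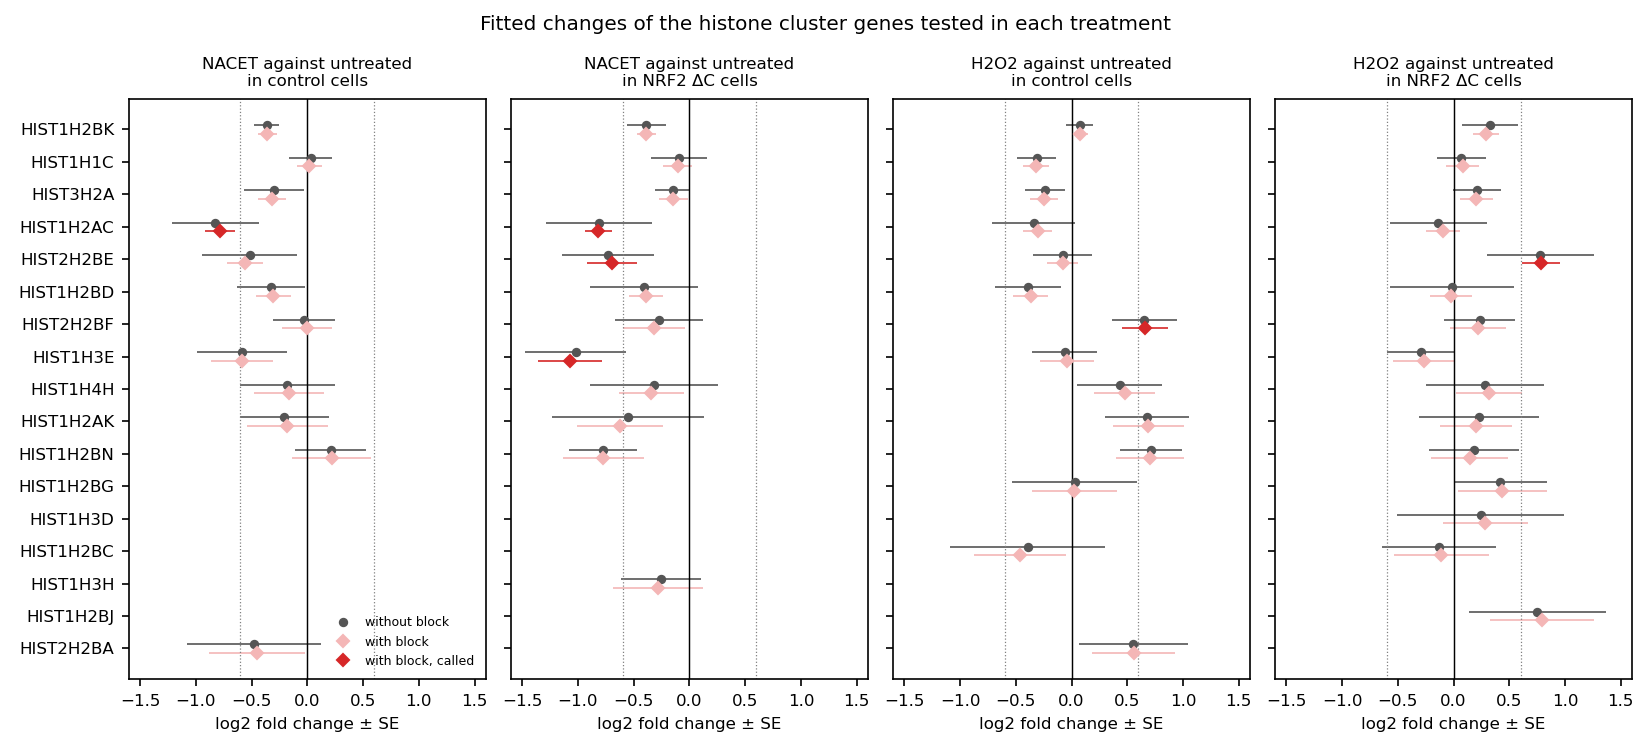
Fitted log2 fold changes with standard errors of the members tested under each treatment, without (grey) and with (red) the sample number as a block, dotted lines marking the fold limit of 0.6. Grey and red points nearly coincide, the red errors are mostly shorter, and dark red marks the 6 calls with the block in the 4 panels, which are 4 different members.

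H3 and H4 genes had few counts. HIST1H4H, the only H4 gene with 10 counts in 3 libraries, had 1.29, 0.627 and 0.592 CPM in untreated control cells, 0.597, 1.11 and 0.535 CPM with NACET and 1.53, 0.896 and 1.03 CPM with H2O2. NRF2 ΔC samples had 1.66, 0.970 and 0.415 CPM untreated, 1.34, 0.715 and 0.365 CPM with NACET and 1.64, 1.59 and 0.555 CPM with H2O2. The groups overlapped throughout, and no comparison passed the test with or without pairing. HIST1H3D, an H3 gene, had 0.356, 0.289 and 0.0912 CPM in untreated control cells, 0.199, 0.265 and 0.165 CPM with NACET and 0.236, 0.299 and 0.196 CPM with H2O2. The edited cells had 1.22, 0.310 and 0.277 CPM untreated, 0.752, 0.275 and 0.274 CPM with NACET and 0.976, 1.08 and 0.128 CPM with H2O2, so that single samples set its range. HIST1H3H ranged from 0.128 to 0.675 CPM over the 18 samples. The second H1 and H4 genes by counts were HIST1H1E, with at most 5 counts in a library, and HIST1H4E, with at most 12, too few for a comparison. HIST3H2A, the H2A gene with most counts, varied less, with group means of 6.08 to 8.80 CPM. It had 6.89, 7.86 and 8.02 CPM in untreated control cells, 4.77, 4.44 and 9.02 CPM with NACET and 5.18, 6.23 and 7.80 CPM with H2O2. The NRF2 ΔC samples had 6.34, 7.83 and 8.25 CPM untreated, 6.73, 7.15 and 6.62 CPM with NACET and 6.68, 10.1 and 9.60 CPM with H2O2, again with overlap.

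The other groups of the members with most counts overlapped with the untreated cells of their line. HIST1H1C had 6.96, 11.8 and 9.92 CPM with NACET in control cells, and in edited cells 10.9, 6.90 and 10.1 CPM untreated, 7.94, 6.87 and 11.6 CPM with NACET and 10.1, 11.3 and 8.32 CPM with H2O2. Under H2O2 HIST1H2AC had 7.95, 5.76 and 4.02 CPM in control and 12.4, 10.8 and 4.78 CPM in edited cells, again in the order of the sample numbers. HIST1H3E had 1.59, 1.02 and 1.13 CPM with H2O2 in control and 1.18, 1.33 and 1.11 CPM in edited cells. HIST1H2BK had 30.6, 26.01 and 25.9 CPM with H2O2 in control cells.

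Between the cell lines no member was called in the tests as designed. For untreated NRF2 ΔC against control cells edgeR called 0 of 14 (3.85% of all genes), with NACET 0 of 11 (4.76%) and with H2O2 0 of 13 (5.62%), and no member had an unadjusted p under 0.05 in any of the 3. DESeq2 called 0 of 38 (4.3% of all genes), 0 of 24 (5.46%) and 1 of 25 (7.1%), the last being HIST2H2BA, with 1, 1 and 2 members under 0.05 unadjusted. The medians of the log2 fold changes were 0.07, 0.07 and 0.16. In the comparison under H2O2 the calls depended on single libraries. Leaving out H2O2-treated NRF2 ΔC sample 3, which had the lowest HIST1H2BK, HIST1H2AC and HIST2H2BE of its group, edgeR called HIST1H2BK (0.68 ± 0.13, adjusted p = 0.0330), HIST1H3D (2.01 ± 0.39, adjusted p = 0.0314) and HIST2H2BE (1.22 ± 0.26, adjusted p = 0.0482) higher in the edited cells. For these genes sample 3 was the lowest in 5, 6 and 5 of the 6 groups, and control sample 3 stayed in this fit. The removal therefore raises the edited cells against the control cells, and these calls are no support for a difference. HIST1H3D is among the 21 members through edited libraries alone, with at most 8 counts in any control library. Its call is therefore no independent support for a difference between the lines. Leaving out sample 1 of the H2O2-treated NRF2 ΔC cells, edgeR called HIST3H2A (0.60 ± 0.20, adjusted p = 0.0452) higher and HIST2H2BA lower. HIST3H2A was lowest in sample 1 in 4 of the 6 groups, so its call has the same limit. Of the 21 members the groups did not overlap in 2 untreated (18.7% of the 14219 genes), 2 with NACET (24.5%) and 3 with H2O2 (27.7%).

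HIST2H2BA, a transcribed H2B pseudogene on chromosome 1 (GRCh37 chr1:120906101-120906358, plus strand), had at most 3 counts in any library of the edited clone. It is among the 21 members through control libraries alone, since all 5 libraries with 10 or more counts are of control cells, so its values are a description of the line in which it was high and the tests below are no independent support. In control cells it had 11, 14 and 6 counts in the untreated samples, 10, 9 and 2 with NACET and 20, 14 and 8 with H2O2. The edited cells had 2, 2 and 2 counts untreated, 2, 0 and 1 with NACET and 3, 2 and 0 with H2O2. The untreated and the H2O2 groups did not overlap between the lines, whereas with NACET the third control sample had as many counts as the first edited sample. Over 9 libraries each this was 94 counts, or 0.50 CPM (exact 95% Poisson interval 0.404 to 0.612), against 14 counts, or 0.0714 CPM (0.0391 to 0.120), intervals that cover counting error only. The low counts kept it out of the main tests between the lines. In 1 fit of all 18 samples its log2 fold change was -2.36 ± 0.75 untreated (adjusted p = 0.0885), -2.72 ± 0.91 with NACET (adjusted p = 0.0858) and -3.04 ± 0.75 with H2O2 (adjusted p = 0.0143), and DESeq2 called it with H2O2 alone (adjusted p = 0.0166). The fit of all samples called 4.99%, 5.7% and 7.83% of all genes in these 3 comparisons. Without a filter on low counts, where 5.24% of all genes were called under H2O2, edgeR called it there as well (-3.07 ± 0.74, adjusted p = 0.0276). Leaving out the third untreated control sample edgeR called it there too (-2.63 ± 0.54, adjusted p = 0.0343), and under H2O2 it was called without the third control sample (-3.36 ± 0.76, adjusted p = 0.0463) and without the first edited sample (-3.75 ± 0.91, adjusted p = 0.0123). Only 6.41% of the 78 50-base windows of its annotated exons are unique, and reads from the others were dropped in both lines. These exons add up to 296 bases, more than the span given above. The annotation used by the authors is not known, so this share may not describe the locus that was counted.

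The 12 samples of a treatment and its untreated groups gave the interaction, the difference of the treatment effect between the lines. edgeR called 0 of 19 members for NACET (0.0643% of all genes), with an unadjusted p under 0.05 for HIST1H2BN alone (-0.99 ± 0.40, adjusted p = 1.00), and 0 of 19 for H2O2 (0.0214% of all genes), with none under 0.05. DESeq2 called 0 of 24 for each (0.178% and 0.503% of all genes), with 1 and 0 members at an unadjusted p under 0.05. With a block of the sample number within each cell line, added after the data were seen, HIST2H2BE was called for H2O2 (0.88 ± 0.22, adjusted p = 0.0225), among 6.91% of all genes. Without the block this interaction was 0.87 ± 0.62 (adjusted p = 0.919), with 0.52 when H2O2-treated NRF2 ΔC sample 1 was left out and 1.41 without untreated NRF2 ΔC sample 1. In control cells HIST2H2BE had 5.13, 4.99 and 3.04 CPM with H2O2, each slightly below the untreated sample of its number, whereas each NRF2 ΔC sample was above.

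Some members kept the same order of sample numbers across groups. HIST1H2AC and HIST1H2BD were highest in sample 1 in all 6 groups, 2 of 21 members against 11.3% of the 14219 genes. Sample 1 was highest in at least 5 groups in 7 of 21 members (20.6% of these genes), and sample 3 was lowest in at least 5 groups in 12 of 21 (15.5%). Sample 1 held 1.87 to 3.06 times the HIST1H2AC of sample 3, and 1.57 to 4.5 times the HIST1H2BD. HIST3H2A and HIST2H2AC went the other way and were lowest in sample 1 in 4 of 6 groups. For all 73 members together the ratio of sample 1 to sample 3 was 1.00 to 1.88 (median 1.34). The summed level of 20 S phase genes, such as the MCM helicase subunits, moved with the number in the opposite direction, lowest in sample 1 and highest in sample 3 in all 6 groups, at a ratio of 0.469 to 0.691. The histone chaperones and the replication-independent histone genes were also lowest in sample 1 in all 6 groups (ratios 0.792 to 0.912 and 0.721 to 0.924). What the number marks is not given in the sources used here, and the part of these lists in the histone values was not tested.

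**Figure D3:**
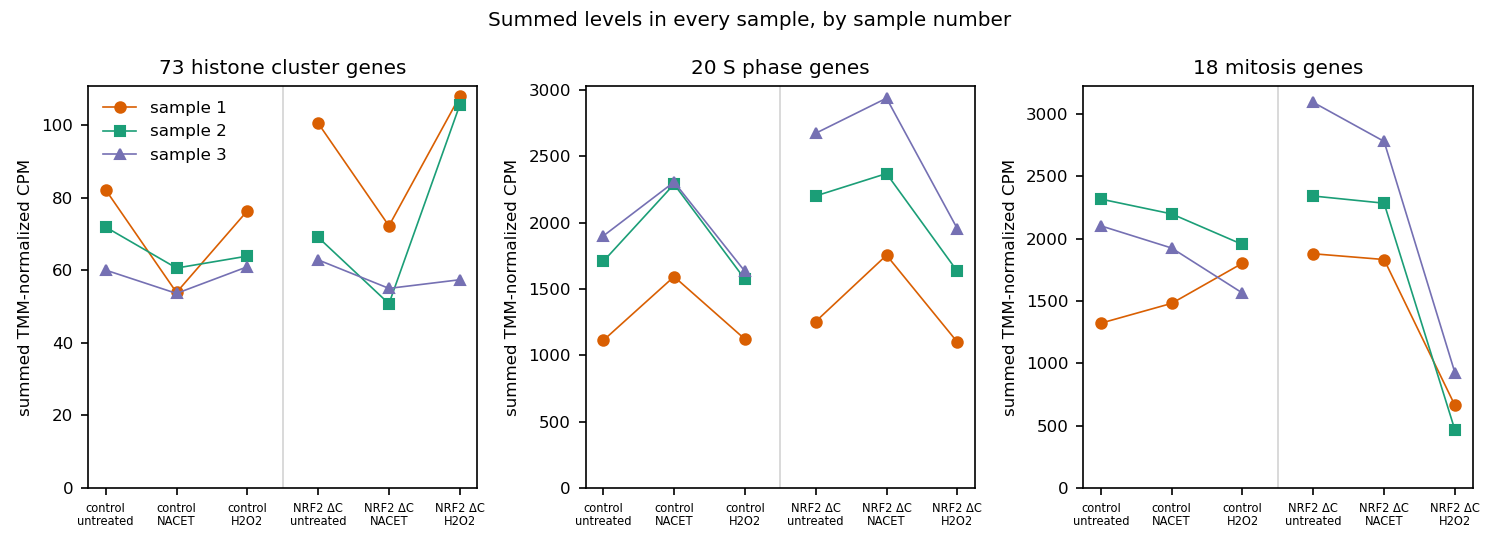
Summed TMM-normalized CPM of the 73 histone cluster genes, 20 S phase genes and 18 mitosis genes in every sample, with lines joining the samples of 1 number within a cell line. Sample 1 is the highest for the histone cluster genes in 5 of 6 groups and the lowest for the S phase genes in all 6, while the mitosis genes drop in all 3 H2O2-treated NRF2 ΔC samples.

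Genes that act beside the histone cluster genes were followed as lists, chosen with earlier results of these data known. Of 18 factors for histone mRNA transcription, processing and decay, such as NPAT, SLBP and the LSM10 and LSM11 subunits of the particle that cuts the stem-loop mRNA, all were tested (SLBP is also among the S phase genes) and 0 were called in any of the 9 comparisons. With the sample number as a block, CASP8AP2 alone was called, lower with H2O2 in NRF2 ΔC cells, where 18.7% of all genes were called. Of 18 histone chaperones HJURP, which loads the centromeric histone, and ANP32E were lower with H2O2 in NRF2 ΔC cells (-1.59 ± 0.35 and -1.08 ± 0.17, adjusted p = 0.0250 and 0.00761), 2 of 18 where 9.81% of all genes were called. Of the 18 mitosis genes 17 fell with H2O2 in NRF2 ΔC cells (median log2 fold change -1.82), led by KIF20A at -3.22 ± 0.38, and 0 were called in control cells, where pairing added KIF20A alone. With H2O2 in NRF2 ΔC cells, 3 of the 20 S phase genes were called without pairing, all lower. These were MCM6, MCM4 and GINS1, at log2 fold changes of -1.17 to -0.997. The 20 genes had a median of -0.37 in these cells. In control cells their median with H2O2 was -0.07, and 0 were called without pairing. Under NACET, where the members' medians lay below 0, the S phase list had a median of 0.45 in control cells and one of 0.31 in the edited cells, with 0 called. With pairing 7 of the 20 were called higher in control cells, among them CDC6, E2F1, CCNE2 and MCM6, and 3 higher (CDC6, E2F1 and CDT1) and 1 lower (MCM7) in NRF2 ΔC cells. These paired fits called 7.49% of all genes in control and 8.82% in NRF2 ΔC cells. The histone cluster genes tested with H2O2 in NRF2 ΔC cells had a median of 0.23 and no call without pairing. CDKN1A, the p21 inhibitor of cyclin-dependent kinases, rose with H2O2 by 1.69 ± 0.11 in control and 2.21 ± 0.21 in NRF2 ΔC cells (log2 scale, adjusted p = 0.000836 and 0.00150), as 1 of 5 called among 9 cell cycle arrest genes tested in control cells and 1 of 6 called among 8 in NRF2 ΔC cells. Of all genes 6.33% and 9.81% were called in these 2 comparisons.

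**Figure D4:**
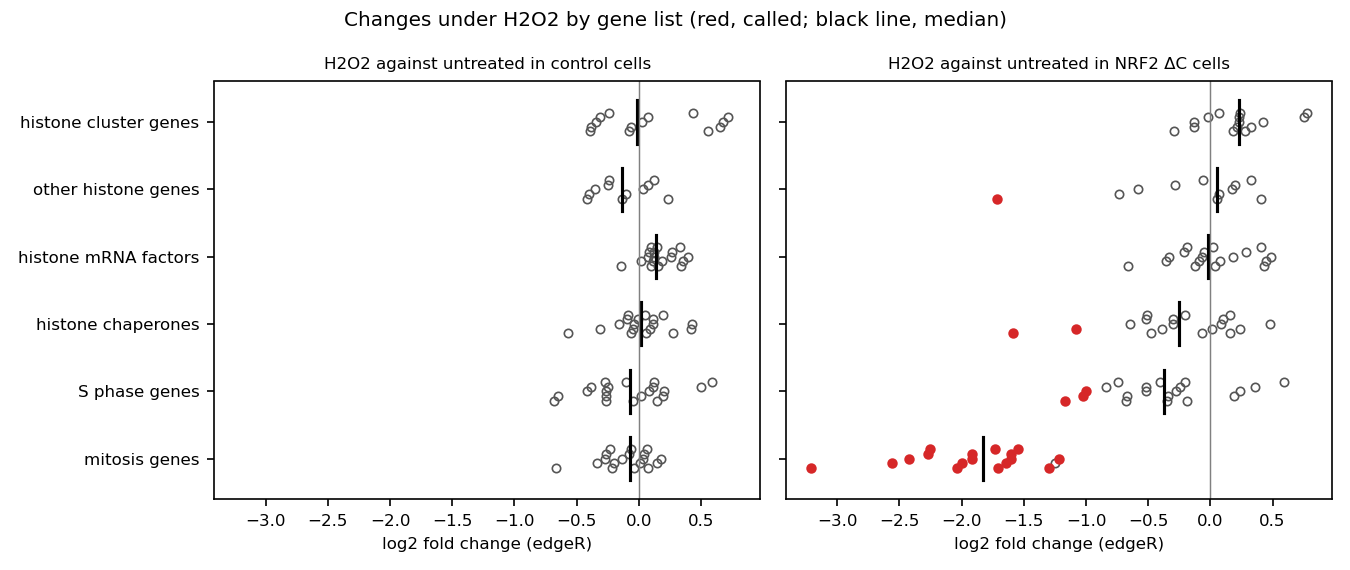
Log2 fold changes under H2O2 of the genes tested in 6 lists in control cells (left) and NRF2 ΔC cells (right), 1 point per gene, red where called by edgeR, with a black line at the median. In NRF2 ΔC cells 17 of 18 mitosis genes lie at the left in red, and the histone cluster genes lie around 0.23 without a call.

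Among the replication-independent histone genes, which are transcribed outside S phase as well and give polyadenylated mRNAs, H1F0 changed most often. This gene encodes a linker histone that accumulates in cells that stop dividing. It had 39.4, 34.0 and 38.9 CPM in untreated control cells and 15.3, 18.2 and 16.3 CPM with NACET, a log2 fold change of -1.16 ± 0.11 (adjusted p = 0.00555). The edited cells had 12.9, 12.8 and 15.9 CPM untreated and 4.26, 3.24 and 6.62 CPM with NACET, a log2 fold change of -1.57 ± 0.26 (adjusted p = 0.0318). Within each line the untreated and NACET groups did not overlap, and H1F0 was also lower in NRF2 ΔC than in control cells in each treatment, at log2 fold changes of -1.43 untreated, -1.84 with NACET and -0.75 with H2O2. Of the 12 genes listed 11 were tested, and the others called without pairing were CENPA, the centromeric histone, which was lower with H2O2 in NRF2 ΔC cells (-1.72 ± 0.34), and H2AFJ, which was higher in NRF2 ΔC than in control cells under H2O2 (1.82 ± 0.37).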

How the data were processed

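The deposited files hold raw counts per gene symbol, made by the authors from poly(A)-selected, unstranded RNA-seq reads with TopHat2 2.1.0 and HTSeq 0.11.2 on hg19, and reads mapping to more than 1 place were dropped, which lowers near-identical histone copies. The annotation the authors counted on is not given in the sources used here. Summary lines (no feature, 15.0 to 17.5% of reads, ambiguous and not unique) stayed out of library sizes and tests. Samples were grouped by their labels. The members and lists were chosen with earlier results of these data known. Counts were tested with edgeR 4.0.16 (R 4.3.3, filterByExpr, TMM, quasi-likelihood test, two-sided) in the 6 samples of each pair of groups, or 12 for interactions, with Benjamini-Hochberg adjustment over all genes tested. Calls needed an adjusted p below 0.05 with a log2 fold change of 0.6 or beyond in either direction, interactions at the adjusted p alone. The script was tested on simulated data.

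Alternatives were DESeq2 1.42.0, RLE normalization, no filter, no fold limit, 1 fit of all 18 samples, leaving out each library and the replicate block, and a replicate block within each cell line was added after the data were seen. Same-numbered samples, numbered in the labels, were checked on log2(CPM + 0.5): their deviations from group means correlated at 0.387 to 0.796 within a cell line, so the numbers pair samples there. Any member with 10 or more counts in 3 libraries could be named. Values per sample were to be given for members called and for the 2 of each class with most counts, and up to 4 called genes per other list and comparison were named. Other members shown per sample were chosen after their values were seen. Gene positions and stem-loops come from GENCODE (GRCh37) and promoters from RefSeq (GRCh38.p14). HIST1H2BF, HIST1H2BG and HIST1H4F were not placed.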

Additional observations from a re-analysis of the deposited data

Results flagged for a closer look

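The same-numbered pairs of HIST2H2BE under H2O2 lay above 0 in NRF2 ΔC cells and slightly below 0 in control cells, where the gene was not called with or without pairing and the groups overlapped. On log2(CPM + 0.5) the 3 same-numbered pairs of NRF2 ΔC samples were at 0.61, 1.14 and 0.41, and those of control cells were at -0.07, -0.04 and -0.11, a difference of 0.795 between the mean shifts. The interaction was 0.874 without pairing (adjusted p = 0.919 in edgeR) and 0.882 with a replicate block within each cell line (adjusted p = 0.0225), a setting added after the data were seen.

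HIST3H2A, which was called in neither line, had pair shifts of 0.07, 0.35 and 0.21 in NRF2 ΔC cells and of -0.38, -0.31 and -0.04 in control cells, a difference of 0.452. Its interaction was not called in edgeR without pairing (adjusted p = 0.919) or with the block within each cell line (adjusted p = 0.116). Groups of 3 samples were too small for a search for single outlying samples.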

How the results depend on the processing

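Without pairing no member was called in any of the 9 comparisons, and RLE normalization and dropping the fold limit left that count at 0. In control cells the replicate block gave 1 call under each treatment. In NRF2 ΔC cells it gave 3 under NACET but 1 under H2O2. Between the cell lines, where same-numbered samples did not always deviate together, calls with the replicate block are not given. Under H2O2 HIST2H2BA was the 1 call between the lines by DESeq2, the 1 without a filter and the 1 in a fit of all 18 samples. For the interaction with H2O2 the block within each cell line called 1. Leaving out 1 library gave 0 to 1 calls between the untreated lines and 0 to 3 between the H2O2-treated lines, and 0 in the other comparisons. The median log2 fold change of the members then ran from -0.54 to -0.03 for NACET and from -0.22 to 0.12 for H2O2 in control cells, and from -0.90 to -0.23 and from 0.00 to 0.51 in NRF2 ΔC cells. The cause of these differences was not tested. Most members had too few counts for a comparison.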
